A study of Mus musculus with 12 samples.

Results

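GFRα1+ and NGN3+ spermatogonia are neighbouring subsets of undifferentiated spermatogonia in the mouse testis, and the differences described here are those of all genes outside the retinoic acid pathway. The comparison used 6 of the 12 arrays of the series, the 3 arrays of NGN3+ and the 3 of GFRα1+ cells, which were chosen by their labels. The 3 arrays of KIT+ differentiating spermatogonia and the 3 of whole testes gave reference levels. All mice were C57BL/6, and testes were taken at 10 to 11 weeks of age. About 10000 to 20000 cells gave the RNA of each sorted sample, and 500000 that of each whole testis sample. The GFRα1+ fraction was sorted as the GFP+ cells of Gfra1-EGFP mice, 1 mouse per sample. The NGN3+ fraction was sorted as the GFP+/KIT- cells of Ngn3-EGFP mice, with 2 mice pooled per sample. KIT+ cells were the GFP+/KIT+ cells of Ngn3-EGFP mice, 1 mouse per sample. The reporter line thus differed between the compared fractions, and GFP fluorescence persists in Ngn3-EGFP mice, so the gate against KIT sets one border of the NGN3+ fraction. The reporter line and the cell state cannot be told apart.

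GFRα1 is the subunit with which spermatogonia bind glial cell line-derived neurotrophic factor (GDNF) from Sertoli cells. It signals with the receptor tyrosine kinase RET through ERK and other kinases, and sustains the stem cell pool. NGN3, encoded by Neurog3, is a basic helix-loop-helix transcription factor that marks spermatogonia on the way to differentiation, some of which can return to the stem cell state.

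Levels are given as log2 values relative to the 75th percentile of the array, so that a level of 0 is that percentile, and a difference is the mean of the 3 NGN3+ arrays minus that of the 3 GFRα1+ arrays. "Passed" means an adjusted p under 0.05 from limma over all genes tested. Genes entered the test if the scanner called them well above background throughout the 3 arrays of at least 1 fraction. This left 23796 genes, of which 20.0% passed as higher and 36.2% as lower in NGN3+ cells, with a median difference of −0.19 over all of them. Pairs of arrays correlated at 0.985 to 0.994 within a fraction and at 0.889 to 0.932 between fractions.

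All NGN3+ and KIT+ arrays carried the scan record of GFRα1+ replicate 3, while GFRα1+ replicates 1 and 2 shared another. Within the shared scan record 1 GFRα1+ array stands against 3 NGN3+ arrays, the lone array is assumed to vary like the NGN3+ and KIT+ ones, and 15.5% of genes were higher and 20.7% lower. The scanner called 50.1% to 50.9% of probes clearly detected on GFRα1+ arrays and 59.5% to 65.1% on NGN3+ arrays. With the percentile taken over the probes detected on all 12 arrays, called the other percentile here, the median difference was −0.01 and the split 5924 higher and 5936 lower, so small differences near the median have no settled direction.

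Genes whose mean in whole testes was at least 2 log2 units above the mean of both fractions were set apart. Of these 4290 genes outside the retinoic acid list, 3292 were higher and 88 lower in NGN3+ cells, with a median difference of 1.83. Not all of them were detected in both fractions. Of the 2315 detected on all 6 arrays, 1576 were higher and 93 lower (median 0.97), and with normexp 2669 of all 4290 were higher and 234 lower (median 0.64). The 19420 genes that were neither set apart nor in the retinoic acid list had a median of −0.30. Of them 1450 (7.47%) were higher and 8506 (43.8%) lower in NGN3+ cells. With the other percentile the counts were 2449 and 5866. Differences beyond 1 log2 unit that passed were 527 rises and 1728 falls.

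**Figure D1:**
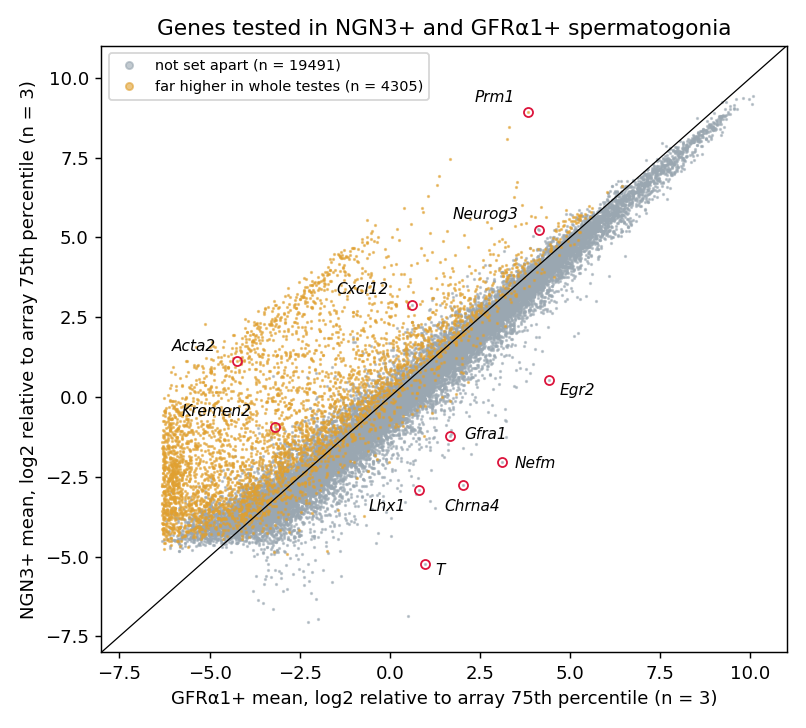
Mean log2 level of each of 23796 genes in NGN3+ cells (vertical axis) against GFRα1+ cells (horizontal axis), 3 arrays each, with a line of equal levels. Orange points are genes far higher in whole testes and lie mostly above the line, grey points are all others, and circles mark named genes, among which Nefm, Egr2 and T lie far below the line.

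The fractions differed in their markers. Gfra1 and Neurog3 are the genes of the reporters used for the sort, so their differences are no independent test of the fractions. Gfra1 had log2 levels of 1.79, 1.48 and 1.70 in GFRα1+ cells and of −0.96, −1.39 and −1.29 in NGN3+ cells. The 3 arrays of each fraction stood well apart, with a Gfra1 difference of −2.87 (SE 0.14, adjusted p = 1.98e-06 from limma). Neurog3 stood at 3.92, 4.33 and 4.15 in GFRα1+ cells and at 5.64, 5.28 and 4.79 in NGN3+ cells. The fractions did not overlap, but Neurog3 transcript was among the brighter signals in both, and the difference was 1.1 (SE 0.21, adjusted p = 0.00272). Kit, the receptor that marks differentiating spermatogonia, was at 1.36 to 1.58 in GFRα1+ and at 1.48 to 2.60 in NGN3+ cells. These ranges overlapped, and the difference of 0.47 did not pass (adjusted p = 0.142 from limma), although it passed without NGN3+ replicate 1.

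Among genes that were not set apart and were detected on all 6 arrays, the largest fall was that of Nefm, which encodes the medium neurofilament subunit and is a marker of the GFRα1+ state. It stood at 3.17, 2.85 and 3.34 in GFRα1+ cells and at −1.97, −2.39 and −1.78 in NGN3+ cells. No array of one fraction came within 4 log2 units of the other, and the difference was −5.17 (SE 0.22, 35.9-fold, adjusted p = 1.88e-06 from limma). Its probe lies on chr14:68738193-68738252 in mm9. Nefl, the light subunit, differed by −3.77 (adjusted p = 1.60e-06), from levels of 0.49 to 0.94 down to −3.13 to −2.92. Nefh and Ina, of the same filament family, did not pass, although Ina passed as higher with the other percentile and without GFRα1+ replicate 3 or NGN3+ replicate 3.

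Homeobox and T-box genes were among the falls. T, which encodes the mesodermal T-box factor brachyury, stood at 1.07, 0.90 and 0.94 in GFRα1+ cells and was not above background on any NGN3+ array, which makes it at least 63.1-fold lower. Genes undetected in 1 fraction entered the test only through the other, so no p is given for such genes. Eomes, of the same family, went from 2.44, 1.88 and 2.43 to −1.54, −2.06 and −1.77, a difference of −4.04 (adjusted p = 4.32e-06 from limma). Both T-box genes were thus high on every GFRα1+ array and low or undetected on every NGN3+ array. Lhx1, a LIM homeobox gene that GDNF is known to induce, stood at 1.06, 0.50 and 0.90 against −2.76, −3.03 and −2.93, with a difference of −3.73 (adjusted p = 1.88e-06). Irx3, an Iroquois homeobox gene, differed by −3.84 (14.3-fold, adjusted p = 2.50e-06), and Pdx1, the homeobox gene of the pancreas, was at least 12.2-fold lower.

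The 12 largest falls also included the following genes. Chrna4, a subunit of the neuronal nicotinic acetylcholine receptor, went from 2.11, 1.74 and 2.21 to −2.74, −2.86 and −2.71, a difference of −4.79 (27.7-fold, adjusted p = 1.60e-06 from limma). Mpzl2, an adhesion protein of epithelia, differed by −4.47, and Cd109, a membrane-anchored protein that binds TGF-β, by −4.37. Krtap17-1, a keratin-associated protein gene, differed by −4.41, Plekhh3 by −3.98, the rhomboid family gene Rhbdl3 by −3.96, Tmem132e by −3.92 and Arhgap9, a GTPase-activating protein gene, by −3.84. In 8 of the 12, KIT+ cells were lower still than NGN3+ cells. With normexp, another background correction, which adds an offset to dim signals, the smallest of the 12 differences was −2.21 (Rhbdl3).

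Ecrg4, which encodes a secreted peptide precursor, was also not above background on any NGN3+ array. Its GFRα1+ arrays disagreed, at 1.09, 1.65 and −1.27, and it was at least 52.7-fold lower in NGN3+ cells. The lowest of the 3 was the array scanned with the NGN3+ samples. Frem1, an extracellular matrix gene, was at least 12.2-fold lower, the RNA 9930012K11Rik at least 8.48-fold and Gm2399 at least 8.05-fold. With normexp the differences were smaller, at −3.39 for Ecrg4, −1.64 for Frem1, −1.63 for Pdx1, −1.70 for 9930012K11Rik and −1.48 for Gm2399.

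**Figure D2:**
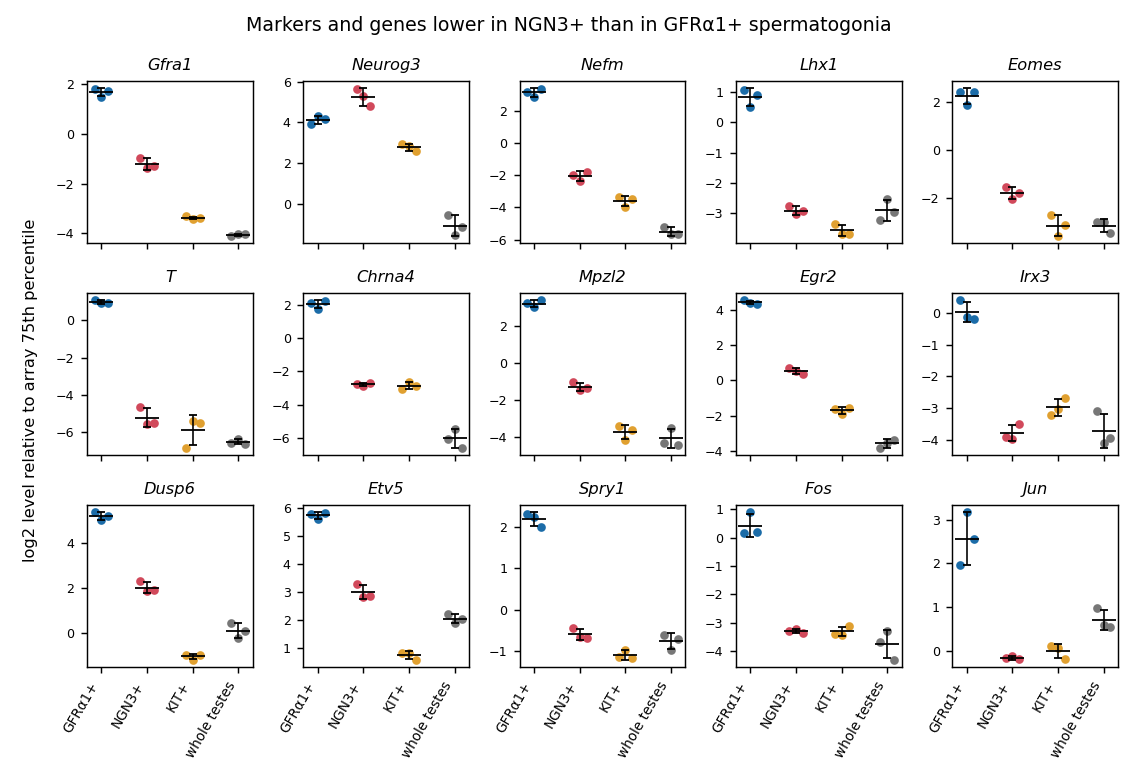
Levels of the markers and of genes that fell, on a log2 scale relative to the 75th percentile of the array (vertical axis, scaled per gene) for the 4 groups (horizontal axis). Points are arrays, and bars give each group's mean and SD (n = 3). Apart from Neurog3, each gene is higher on all 3 GFRα1+ arrays than on any NGN3+ array, and T was not above background on the NGN3+ arrays.

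Most genes known from stem cell activity of spermatogonia fell. Of 25 tested, 20 were lower and 3 higher, with a median of −1.49 against −0.19 over all genes. Within the shared scan record 16 were lower and 1 higher, and 1 was higher without GFRα1+ replicate 1. Foxc2, a forkhead factor gene, went from 3.48, 3.35 and 3.46 to 0.56, 0.26 and 0.20 (difference −3.09, adjusted p = 2.33e-06 from limma). Id4, an inhibitor of helix-loop-helix factors, differed by −2.07, the BCL6 relative Bcl6b by −2.18, and Nanos2, an RNA-binding repressor of differentiation, by −1.49 (adjusted p = 0.000459). Nanos2 remained at 1.34 to 1.89 in NGN3+ cells against a mean of −2.64 in KIT+ cells, so its level there lay between the other fractions. Shisa6, an inhibitor of Wnt signals, was at least 9.40-fold lower and not above background on any NGN3+ array.

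The exceptions were Pax7, Tert and Mycn, which rose. Where only the 21 stem state genes detected on all 6 arrays were tested, 2 were higher and 17 lower. Pax7, a paired box gene that marks a small set of spermatogonia, stood at −2.59, −3.66 and −2.56 in GFRα1+ cells and at −1.52, −1.81 and −2.0 in NGN3+ cells, a difference of 1.16. Its arrays did not overlap, and it did not pass with the scan as a block. Tert, the telomerase subunit, and Mycn differed by 0.42 and 0.39, and neither passed within the shared scan record or without GFRα1+ replicate 1. Tert also failed to pass without GFRα1+ replicate 2, and Mycn without GFRα1+ replicate 3, NGN3+ replicate 1 or NGN3+ replicate 2. Egr4 (0.15) and Foxo1 (0.31) did not pass, although Foxo1 passed as higher with the other percentile and without NGN3+ replicate 3. Zbtb16, which encodes PLZF, had a difference of −0.45 (adjusted p = 0.0328), but did not pass with the other percentile, within the shared scan record, or when any 1 array other than NGN3+ replicate 1 was left out.

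Most feedback inhibitors and targets of ERK fell. Of 16 tested, 14 were lower and 1 was higher, with a median of −1.61 against −0.19 over all genes, and 13 were lower within the shared scan record. Dusp6, the phosphatase that removes phosphate from ERK, went from 5.37, 5.02 and 5.23 to 2.29, 1.84 and 1.90, a difference of −3.20 (9.19-fold, adjusted p = 1.98e-06 from limma). The 3 NGN3+ arrays lay more than 2 log2 units below the lowest GFRα1+ array. Spry1, an inhibitor of receptor tyrosine kinase signals, stood at 2.32, 2.25 and 2.0 against −0.43, −0.65 and −0.69 (difference −2.79, adjusted p = 1.88e-06). Phlda1 differed by −3.07 and Spry4 by −3.25 (adjusted p = 0.00381), the latter not passing within the shared scan record.

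The ETS factors of the PEA3 type split. Etv5, which GDNF is known to induce, went from 5.76, 5.59 and 5.82 to 3.29, 2.82 and 2.87 (difference −2.73, adjusted p = 2.56e-06 from limma), and Etv4 differed by −1.85 (adjusted p = 2.79e-05). Both were lower on every NGN3+ array. Etv1 was 0.88 higher but was set apart as far higher in whole testes, and did not pass within the shared scan record or without GFRα1+ replicate 1, GFRα1+ replicate 2, NGN3+ replicate 1 or NGN3+ replicate 2. Spry2 did not pass.

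Of 18 GDNF receptor and adaptor genes, 10 were lower and 4 higher (median −0.51). These shares were 55.56% and 22.22%, against 36.2% and 20.0% of all genes tested. Ret stood at 1.88, 1.76 and 1.78 in GFRα1+ cells and at 0.27, −0.18 and −0.44 in NGN3+ cells, a difference of −1.93 (adjusted p = 0.000372 from limma). Ncam1, which can bind GFRα1, differed by −2.12 (adjusted p = 1.65e-05), while its other probe did not pass. One of the rises, Gab2, was set apart as far higher in whole testes, and the others were Sdc3 (1.0), Dok1 (0.87) and Gfra3 (0.45), of which only Dok1 passed within the shared scan record.

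Immediate early genes, which growth factor signals and also tissue dissociation induce within minutes, were lower in NGN3+ cells in 17 of 26 cases and higher in 1, Dusp2 (0.78), with a median of −0.76. Within the shared scan record 14 were lower, and without NGN3+ replicate 3 there were 2 rises. Egr2, a zinc finger factor gene, went from 4.53, 4.36 and 4.34 to 0.69, 0.54 and 0.35 (difference −3.88, adjusted p = 1.60e-06 from limma). Fos stood at 0.18, 0.91 and 0.21 against −3.29, −3.22 and −3.37, and Jun at 1.97, 3.18 and 2.57 against −0.17, −0.12 and −0.19. The GFRα1+ arrays spread over more than 1 log2 unit for Jun and all lay above the NGN3+ arrays, with differences of −3.73 for Fos (adjusted p = 2.39e-06) and −2.73 for Jun (adjusted p = 5.09e-05). Zfp36, which encodes an mRNA decay factor, was at least 7.02-fold lower and not above background in NGN3+ cells. The part of the cell sort in these levels was not tested. Heat shock genes, which handling of cells also induces, were higher in 2 and lower in 8 of 12 cases (2 and 3 within the shared scan record). The inducible Hspa1a rose by 0.86 (adjusted p = 0.00181), and Hspb1 was higher but set apart. The constitutive Hspa8 had a difference of −0.75 and did not pass within the shared scan record.

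The promoter sequences of 3 of these genes are shown because they hold a CArG box, the element bound by serum response factor, which is known for induction of immediate early genes. The sequences are those of RefSeq on GRCm38.p6, from 250 bases before to 50 bases after the start of the gene on its own strand, with the CArG boxes in capitals. Egr2 lies on the plus strand at chr10:67537316-67537615, Zfp36 on the minus strand at chr7:28379179-28379478 and Dusp5, an ERK phosphatase, on the plus strand at chr19:53528895-53529194.
Egr2: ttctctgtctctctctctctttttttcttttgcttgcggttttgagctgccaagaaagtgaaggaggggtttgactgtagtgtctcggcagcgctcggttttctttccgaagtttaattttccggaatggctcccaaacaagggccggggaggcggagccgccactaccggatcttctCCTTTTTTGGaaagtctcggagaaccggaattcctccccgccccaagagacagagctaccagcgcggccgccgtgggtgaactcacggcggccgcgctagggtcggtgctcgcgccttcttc
Zfp36: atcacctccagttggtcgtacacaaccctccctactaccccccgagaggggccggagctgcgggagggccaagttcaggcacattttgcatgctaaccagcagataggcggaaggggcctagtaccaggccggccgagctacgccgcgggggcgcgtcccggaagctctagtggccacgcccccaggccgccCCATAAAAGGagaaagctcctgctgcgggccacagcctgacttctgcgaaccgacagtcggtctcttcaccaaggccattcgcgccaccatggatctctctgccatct
Dusp5: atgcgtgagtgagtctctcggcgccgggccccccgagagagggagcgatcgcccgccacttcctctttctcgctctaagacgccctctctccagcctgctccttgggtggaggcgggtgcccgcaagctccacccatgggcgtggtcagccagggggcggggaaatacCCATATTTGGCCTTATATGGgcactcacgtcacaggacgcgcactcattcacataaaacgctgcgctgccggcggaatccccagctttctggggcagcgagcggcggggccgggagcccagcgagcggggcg

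Dusp5 holds 2 CArG boxes in a row, and had a difference of −1.95 (adjusted p = 0.000390 from limma). The box was searched on both strands with no mismatch. It was present in 2 of 25 immediate early genes with a promoter in the table, in 1 of 11 ERK feedback genes and in 220 of 12823 genes tested (1.72%). The ETS motif CCGGAAG, on either strand, was in 7 of 149 genes (4.70%) that fell by over 2 log2 units and were not set apart, in 12 of 259 (4.63%) that rose by over 1 log2 unit, and in 1960 of all 10267 (19.1%) such genes with a promoter in the table. The E-box CAGATG, a form that NGN3 and its relatives can bind, was in 17 of the 149 (11.4%), in 55 of the 259 (21.2%) and in 1388 of the 10267 (13.5%). The CArG box was in 4 of the 149 (2.68%), in 4 of the 259 (1.54%) and in 169 of the 10267 (1.65%). Over all 27025 genes with a promoter in the table, tested or not, the ETS motif was in 9.93% and the E-box in 19.2%. Neither short motif contains the other, and a match in this window is a description of the sequence.

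Receptors and effectors of BMP, activin and TGF-β were lower in 13 and higher in 2 of 25 cases, with a median of −0.38. Smad6, an inhibitor of BMP signals, went from 1.53, 1.39 and 1.44 to −1.69, −1.99 and −1.79, a difference of −3.28 (adjusted p = 1.60e-06 from limma). The arrays of each fraction lay close together and far from those of the other. Smad7, the related inhibitor, differed by −1.59, Id3, a target of BMP signals, by −2.07 and the receptor Bmpr1a by −1.06. The receptor Acvr1 and the effector Smad3 rose, by 0.81 and 0.51, Smad3 not passing within the shared scan record or without GFRα1+ replicate 1. The shared scan record gave 7 lower and 2 higher, and the rises numbered 4 without GFRα1+ replicate 3 and 1 without GFRα1+ replicate 1.

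Of 36 Wnt pathway genes 17 were lower and 8 higher (median −0.40), with the other percentile 11 and 11, and within the shared scan record 12 and 5. Wif1, a secreted Wnt inhibitor, stood at 1.0, 0.58 and 0.79 against −2.21, −2.71 and −2.71 (difference −3.33, adjusted p = 2.44e-06 from limma), and Axin2, a target of β-catenin, had a difference of −1.16. Lef1, a transcription factor through which β-catenin acts, went the other way, from −0.11, 0.10 and −0.05 to 1.34, 1.05 and 1.0 (difference 1.15, adjusted p = 7.52e-05). Its arrays did not overlap, and its mean was higher in NGN3+ cells than in KIT+ cells (−0.15) or whole testes (0.22). The ligand gene Wnt3 rose by 1.33 (adjusted p = 0.00619) and did not pass with the scan as a block. The rise of Wnt6 and that of Dkkl1 belonged to genes set apart. Of the 36 genes, 47.22% were lower and 22.22% higher, against 36.2% and 20.0% of all genes tested.

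Of 20 genes of FGF receptors, ligands and adaptors 6 were lower (30%) and 3 higher (15%), against 36.2% and 20.0% of all genes tested. Fgfr1, Fgfr2 and Fgfr3 did not pass. The other rises, of Klb and Fgf2, made a count of 3 that dropped to 1 without GFRα1+ replicate 1, GFRα1+ replicate 2 or NGN3+ replicate 3. Fgfr3 passed as higher with the other percentile. The falls were led by Gpc3, a glypican that carries heparan sulphate (−2.39, adjusted p = 9.75e-06 from limma), and Fgf9 (−2.29, adjusted p = 3.06e-06), and the rises by Fgf8 (0.87). Of 21 receptors for niche cytokines 10 were lower (47.62%) and 4 higher (19.05%), against the same shares of all genes. Their median was −0.12, against −0.19 over all genes. Pdgfra went from 0.11, −0.09 and −0.42 to −2.11, −2.16 and −2.46 (difference −2.11, adjusted p = 1.15e-05), and Cxcr4, the receptor of CXCL12, differed by −1.77 (adjusted p = 1.5e-05). Of the higher ones, the growth hormone receptor Ghr and the CXCL12 receptor Ackr3 were set apart.

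Adhesion genes were mostly lower. Of 34 integrin, cadherin and tight junction genes 23 were lower and 5 higher, with a median of −1.03, and within the shared scan record 21 were lower and 3 higher. Where only the 29 detected on all 6 arrays were tested, 23 were lower and 2 higher. Cdh4, a classical cadherin, stood at 1.1, 1.13 and 1.38 against −0.94, −1.42 and −1.46 (difference −2.48, adjusted p = 5.30e-06 from limma). Cdh3, P-cadherin, differed by −2.39, Thy1 by −1.86, Itga1 by −1.72, Itga6, which binds laminin in the basement membrane, by −1.37 and Ocln, of tight junctions, by −1.29. Cdh1, E-cadherin, and Itgb1 did not pass, although Cdh1 passed as lower without GFRα1+ replicate 3. The higher genes were Cldn3 (0.77), Itga9 (1.28) and Itgb4 (0.67), of which only Cldn3 passed within the shared scan record, and Cldn5 and Itga2, which were set apart.

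Guidance genes were lower in 17 and higher in 8 of 43 cases, a median of −0.12 against −0.19 over all genes. These shares, 39.5% and 18.6%, were near the 36.2% and 20.0% of all genes tested. Where only the 37 detected on all 6 arrays were tested, 16 were lower and 4 higher. Epha2, an ephrin receptor, went from 3.86, 3.79 and 3.70 to 0.62, 0.36 and 0.51, a difference of −3.29 (9.77-fold, adjusted p = 1.60e-06 from limma), and Ephb1 differed by −2.05. The ephrin ligands Efnb2 (−1.66) and Efnb1 (−1.23) and the receptor Plxnb2 (−1.59) were lower as well, Efnb2 not passing within the shared scan record. Of the 8 rises, 4 were set apart, and the other 4, those of Slit2, Nrp2, Plxnb1 and Ephb6, were of 0.68 or less. Without NGN3+ replicate 2 the rises numbered 5, and within the shared scan record 10 genes were lower and 5 higher.

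Genes of DNA replication were lower in 39 of 46 cases and higher in none, with a median of −0.61, and 32 were lower within the shared scan record. Prim1, the primase subunit, went from 4.28, 4.18 and 4.57 to 2.68, 2.65 and 2.97 (difference −1.58, adjusted p = 3.14e-05 from limma). The levels of the list, summed on the linear scale where 1 is the 75th percentile of the array, were 1033 to 1109 in GFRα1+, 656 to 725 in NGN3+ and 928 to 1073 in KIT+ cells. NGN3+ cells thus lay below both other sorted fractions. Mitosis genes were lower in 30 and higher in 2 of 35 cases (median −0.57), and their summed levels were 550 to 607, 364 to 422 and 556 to 656 in the same order. Within the shared scan record 17 mitosis genes were lower and 1 higher. Mki67, which encodes the proliferation antigen Ki-67, stood at 4.68, 4.20 and 4.80 against 2.61, 2.81 and 3.63 (difference −1.54, adjusted p = 0.00142).

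Among cyclins and kinase inhibitors 14 of 27 were lower and 2 higher, against 9 and 2 within the shared scan record. Ccnd2, cyclin D2, had levels of 5.56, 5.33 and 5.46 in GFRα1+ and of 3.36, 2.98 and 3.13 in NGN3+ cells (difference −2.29, adjusted p = 8.03e-06 from limma). Ccnd1 differed by −0.96, Ccnd3 did not pass, and Cdkn1a, the inhibitor p21, differed by −1.22. Cdk6, a kinase partner of D cyclins, went up from −3.52, −3.81 and −4.17 to −2.75, −2.79 and −2.66 (difference 1.1). Of the GFRα1+ arrays 2 of 3 detected it, so it entered the test through the NGN3+ arrays and no p is given. It did not pass with normexp. Without GFRα1+ replicate 3 or NGN3+ replicate 2 the list held 1 rise.

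Of 31 Polycomb genes 20 were lower and 1, Cbx2, higher by 0.36 (median −0.52), and within the shared scan record 11 were lower. Cbx2 did not pass when any 1 array was left out. Phf19, a partner of the H3K27 methyltransferase complex, went from 0.58, 0.40 and 0.61 to −2.17, −2.62 and −2.05 (difference −2.81, adjusted p = 3.06e-06 from limma), while the methyltransferase Ezh2 itself differed by −0.66 and did not pass within the shared scan record. Of 28 genes of DNA and H3K9 methylation 16 were lower and 4 higher, against 9 and 3 within the shared scan record. Uhrf1, which brings DNMT1 to replicated DNA, differed by −1.07 (adjusted p = 7.82e-05) and Dnmt3a by −0.80. Tet3, a dioxygenase that oxidises methylcytosine, rose by 0.81 (adjusted p = 0.000266), though 2 other Tet3 probes did not pass, and Dnmt3l (1.93) was set apart. Without GFRα1+ replicate 1 or NGN3+ replicate 1 the rises numbered 2.

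Growth and energy genes gave no settled direction. Of 77 cytosolic ribosomal protein genes 51 were lower and none higher (median −0.40), but 2 were lower within the shared scan record, 19 with the other percentile, and 7 were lower and 6 higher after quantile normalization. The lower ones numbered 25 without GFRα1+ replicate 1, 27 without GFRα1+ replicate 2, 18 without NGN3+ replicate 2 and 17 without NGN3+ replicate 3, but 65 without NGN3+ replicate 1. Of 65 respiratory chain genes 36 were lower and none higher, against 6 lower within the shared scan record, 22 without GFRα1+ replicate 1, 16 without NGN3+ replicate 2 and 21 without NGN3+ replicate 3. Glycolysis genes were higher in 4 and lower in 4 of 23 cases, all 4 rises being of genes set apart, and 1 was lower within the shared scan record. Cholesterol genes were higher in 5 and lower in 8 of 25 cases, and the split was 8 and 1 with the other percentile and 1 and 2 within the shared scan record. The lower ones numbered 1 or 2 when any array other than NGN3+ replicate 1 was left out. In the main test 20% of the cholesterol genes were higher and 32% lower, near the 20.0% and 36.2% of all genes tested.

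**Figure D3:**
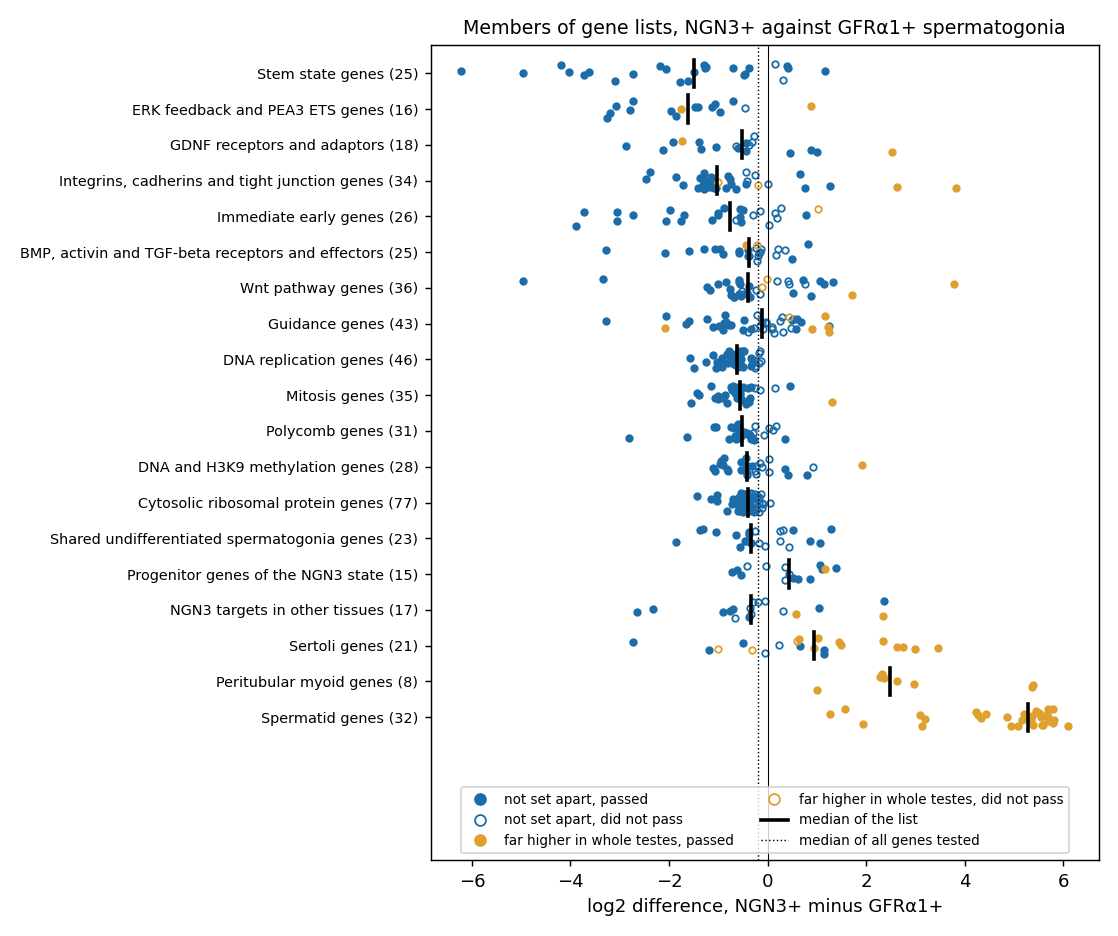
Log2 difference of NGN3+ minus GFRα1+ cells (horizontal axis) for the tested members of 19 gene lists (vertical axis, number tested in brackets), with 1 point per gene. Filled points passed the test and open points did not, orange points are far higher in whole testes, thick bars are list medians and the dotted line is the median of all genes tested (−0.19). The medians of the stem state (−1.49) and ERK feedback (−1.61) lists lie furthest to the left and that of the spermatid list (5.28) furthest to the right.

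Fewer genes were higher in NGN3+ cells once the genes set apart were left out, and their differences were smaller. In 11 of the 12 largest rises NGN3+ cells were also above KIT+ cells. With normexp the 12 differences ran from 0.83 to 2.34. Cxcl12, the chemokine that binds CXCR4, stood at 0.27, 0.98 and 0.57 in GFRα1+ cells and at 3.38, 2.90 and 2.36 in NGN3+ cells, a difference of 2.27 (4.83-fold, adjusted p = 0.000192 from limma). Its mean was −0.90 in KIT+ cells and 1.33 in whole testes, and every NGN3+ array lay above every KIT+ and whole testis array. The probe lies on chr6:117131227-117131286 in mm9, and another Cxcl12 probe passed in the same direction.

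Kremen2, a receptor of the Wnt inhibitors of the Dickkopf family, went from −3.32, −3.07 and −3.16 to −0.77, −1.07 and −0.96 (difference 2.25, adjusted p = 3.85e-06 from limma). Tspan18, a tetraspanin gene, went from −1.40, −1.57 and −1.62 to 0.92, 0.79 and 0.28 (difference 2.19, adjusted p = 1.5e-05). Pgm5, a relative of phosphoglucomutase found at cell junctions of muscle, went from −0.85, −0.69 and −0.69 to 1.74, 1.34 and 1.01 (difference 2.11, adjusted p = 5.34e-05) and was low in KIT+ cells (−2.61) and whole testes (−3.48). Plekha6 differed by 2.11, Mobp, known from myelin, by 2.10, the zinc finger factor Bcl11b by 2.05, the nucleic acid sensor Zbp1 by 2.0 and the phosphatidylserine receptor Havcr1 by 1.99. Bcl11b was higher still in KIT+ cells (−0.40), and Havcr1 did not pass within the shared scan record.

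Ifitm1, an interferon-induced membrane protein gene, rose by 2.70 and Gm7676 by 2.74. Their probes differed by −0.06 to 0.17 on all 12 arrays, so the reading of either symbol alone is uncertain. Scn10a, a sodium channel gene of sensory neurons, rose by 2.53, and its probe stood 0.42 to 0.89 below that of Ifitm1 on all 12 arrays. Whether these probes share sequence was not tested.

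Some rises came from below background in GFRα1+ cells. H2-Oa, of the antigen presentation pathway, was at least 4.10-fold higher, Gm14496 at least 3.88-fold and the RNA 6430710C18Rik at least 3.48-fold. With normexp their log2 differences were 0.58, 0.47 and 0.50. Pnmal1 was at least 3.35-fold and Fam25c at least 3.02-fold higher, but Pnmal1 did not pass within the shared scan record, and neither passed with normexp background correction.

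Genes of the NGN3+ progenitor state were higher in 7 and lower in 3 of 15 cases, with a median of 0.43 against −0.19 over all genes. Upp1, uridine phosphorylase, went from 2.07, 2.44 and 2.94 to 4.31, 3.73 and 3.58 (difference 1.39, adjusted p = 0.00255 from limma), and did not pass within the shared scan record (0.93, adjusted p = 0.0572). Ddit4, an inhibitor of mTORC1, went from 4.79, 4.94 and 4.92 to 6.11, 5.64 and 5.47 (difference 0.86, adjusted p = 0.00240). Both were higher on every NGN3+ array. Sox3, an X-linked SOX factor gene of progenitors, rose by 0.62 (adjusted p = 0.0193) but did not pass without GFRα1+ replicate 3 or without NGN3+ replicate 1. Glis3 was among the falls, from 0.98, 0.95 and 0.95 to 0.51, 0.31 and −0.07 (difference −0.71, adjusted p = 0.00902 from limma). Within the shared scan record 3 genes of the list were higher and 2 lower. Sohlh1, Lin28a and Dmrt1 did not pass, although Sohlh1 and Lin28a passed as higher with the other percentile.

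Of 23 genes shared by all undifferentiated spermatogonia 11 were lower and 4 higher (8 higher and 6 lower with the other percentile). The main shares, 47.83% and 17.39%, compare with 36.2% and 20.0% of all genes tested. The shared scan record gave 5 lower and 2 higher. The lower ones numbered 7 without GFRα1+ replicate 1, GFRα1+ replicate 2, NGN3+ replicate 2 or NGN3+ replicate 3. Utf1, a chromatin protein of pluripotent cells, went from 0.40, 0.58 and 0.24 to 2.0, 1.5 and 1.6 (difference 1.30, adjusted p = 0.000423 from limma), and Sall1, a zinc finger factor gene, from −0.72, −0.47 and −0.74 to 0.48, 0.22 and −0.03 (difference 0.87, adjusted p = 0.00212). Neither overlapped between fractions. Pou5f1, which encodes OCT4, rose by 1.07 (adjusted p = 0.0122) and did not pass within the shared scan record (0.36). Its GFRα1+ arrays ran from −1.24 to 0.07.

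Targets of NGN3 known from the endocrine pancreas and the nervous system were mixed, with 4 higher and 6 lower of 17 tested. These shares, 23.5% and 35.3%, were near the 20.0% and 36.2% of all genes tested. Where only the 13 detected on all 6 arrays were tested, 1 was higher and 6 were lower. Neurod1, a helix-loop-helix gene that NGN3 switches on in the pancreas, was not above background in GFRα1+ cells and stood at −3.38, −3.32 and −3.65 in NGN3+ cells, at least 1.86-fold higher. Dll1, a Notch ligand, was at least 1.67-fold higher, and Dll4, another, went from −1.40, −1.29 and −0.93 to −4.00, −3.90 and −3.68 (difference −2.65, adjusted p = 8.77e-05 from limma). The rises of Neurod1 and Dll1 did not pass with normexp background correction. Insm1 and Nkx2-2 did not pass.

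Of 13 genes of differentiating spermatogonia 4 were higher (30.77%) and 3 lower (23.08%), against 20.0% and 36.2% of all genes tested. Dmrtb1, a DM domain factor gene that controls entry into meiosis, had the largest difference, 3.32 (adjusted p = 3.24e-05 from limma), from −1.33, −1.61 and −1.35 to 1.15, 2.06 and 2.46. It was set apart by the rule, with a mean of 3.27 in KIT+ cells and 4.79 in whole testes. Esx1 rose by 1.0, Lmo1 by 0.71 and Dnmt3b by 0.35. Dnmt3b did not pass within the shared scan record or when any 1 array other than NGN3+ replicate 2 was left out. Of 26 neuronal genes 7 were higher (26.92%) and 4 lower (15.38%), with 11 higher without GFRα1+ replicate 3. The rises included Stmn3 (1.28), of the stathmin family, and 3 of the 7 were of genes set apart. Of 21 piRNA pathway genes 7 were higher and 2 lower, but 2 and 1 within the shared scan record, and 1 was lower without GFRα1+ replicate 1, GFRα1+ replicate 2, NGN3+ replicate 2 or NGN3+ replicate 3.

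**Figure D4:**
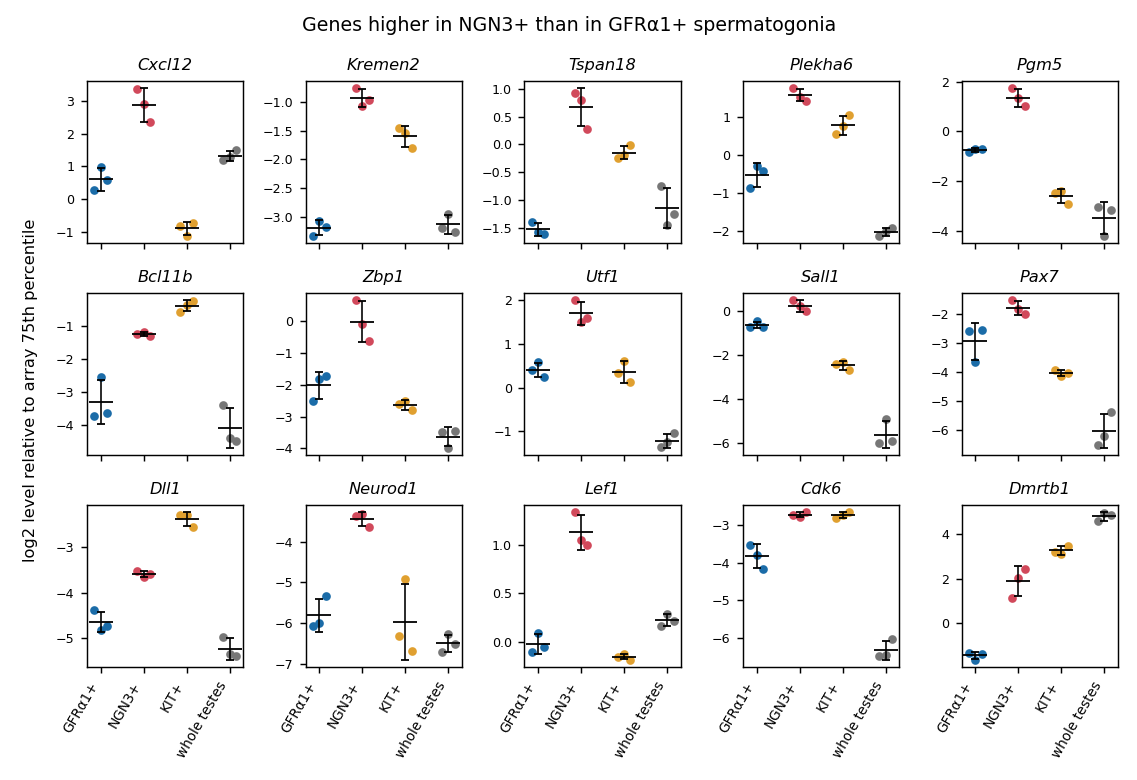
Levels of genes that rose, on a log2 scale relative to the 75th percentile of the array (vertical axis, scaled per gene) for the 4 groups (horizontal axis). Points are arrays, and bars give each group's mean and SD (n = 3). Each gene is higher on all 3 NGN3+ than on any GFRα1+ array, and Bcl11b, Dll1 and Dmrtb1 are higher still in KIT+ cells.

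The genes set apart were led by those of haploid germ cells. The 32 spermatid genes all rose, with a median of 5.28, and all were set apart. Their summed levels were 45.3 to 86.5 in GFRα1+, 1604 to 2058 in NGN3+, 1955 to 2550 in KIT+ cells and 8487 to 10230 in whole testes. In NGN3+ cells the spermatid genes stood at a median of 8.47% of their level in whole testes, and in KIT+ cells at 11.4%, against 0.289% in GFRα1+ cells, where values below background entered as measured. Over the 3292 genes that were set apart and higher, the medians were 9.66% in NGN3+, 11.4% in KIT+ and 1.47% in GFRα1+ cells. These genes were chosen as higher in NGN3+ than in GFRα1+ cells. The direction of the gap between these fractions is thus set by the choice and is no separate observation. The 5 largest differences among them were those of Rnf133 (6.24), Prss55 (6.22), the spermatid linker histone H1f7 (6.16), 1700034E13Rik (6.13) and AI507597 (6.12). In bulk RNA of a sort, fewer cells of a type and less RNA per cell cannot be told apart.

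Spermatocyte genes split. Of 30, 14 were higher and 8 lower (10 and 4 within the shared scan record), and 11 of the 14 were set apart, such as Ldhc (5.33), the germ cell lactate dehydrogenase, and Adam2, at least 46.6-fold higher, which act in later germ cells. The lower ones included Hormad1 (−0.79), Dmc1 (−0.55) and Sycp3 (−0.30), which act early in meiosis. Neither Dmc1 nor Sycp3 passed with the other percentile, and Sycp3 did not pass within the shared scan record or when any 1 array was left out.

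Markers of somatic cells differed too. All 8 peritubular myoid genes were higher in NGN3+ cells (median 2.49), but not all were detected in both fractions. The 4 that were detected on all 6 arrays were all higher (median 2.32). Acta2, smooth muscle actin, stood at 1.39, 1.96 and 0.00 in NGN3+ cells against −4.81, −3.55 and −4.37 in GFRα1+ cells, a difference of 5.36. Its mean was −1.12 in KIT+ cells and 3.23 in whole testes. Acta2 was above background on 1 of 3 GFRα1+ arrays and entered the test through the NGN3+ arrays, so no p is given. The myoid genes stood at a median of 28.6% of their whole testis level in NGN3+ cells, 12.1% in KIT+ and 5.97% in GFRα1+ cells, a larger share in NGN3+ cells than that of the spermatid genes. Of 21 Sertoli genes 13 were higher and 3 lower (median 0.94), against 9 and 3 of the 16 detected on all 6 arrays (median 0.64). Cst12 (3.46) and Gata1, which was at least 4.91-fold higher and not above background in GFRα1+ cells, were among the rises, while Sox9 and Cldn11 did not pass, and Etv5, also held by the ERK list, was among the falls. Without GFRα1+ replicate 3, 5 Sertoli genes were lower, Sox9 and Cldn11 among them. Summed Sertoli levels were 166 to 187 in GFRα1+ and 115 to 154 in NGN3+ cells, so the sum, which follows the brightest members, went against the count.

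Markers of macrophages and vessels moved in both directions. Mrc1, the mannose receptor of macrophages, went from −0.79, −0.82 and −0.51 in GFRα1+ cells to −3.51, −3.51 and −4.12 in NGN3+ cells (difference −3.01, adjusted p = 2.61e-05 from limma), with a mean of 0.01 in whole testes. It was one of the 88 genes set apart that were lower in NGN3+ cells, as was the ERK phosphatase Dusp4 (−1.75). Of 9 macrophage and leukocyte genes tested 5 were lower and 2 higher, and 8 of the 17 in the list were not tested, among them Adgre1 and Cd68. The median was −1.1, against −0.32 within the shared scan record, where 2 were lower and 1 higher. Without NGN3+ replicate 2, 3 were lower, and 1 was higher without GFRα1+ replicate 1, GFRα1+ replicate 2, NGN3+ replicate 2 or NGN3+ replicate 3. Of the higher ones, Aif1 (5.88) stood at 7.91 in whole testes. The summed level of the list was 9.06 to 11.4 in GFRα1+ and 23.4 to 31.7 in NGN3+ cells. This sum follows the brightest members, Aif1 among them, and went against the count. Endothelial genes were lower in 4 (30.8%) and higher in 3 (23.1%) of 13 cases, near the 36.2% and 20.0% of all genes tested. All 3 rises were of genes set apart, and none of the falls was. The 5 endothelial genes set apart stood at a median of 14.2% of their whole testis level in NGN3+ and 3.13% in GFRα1+ cells. Plvap (−3.63) and the VEGF receptor Kdr (−1.26) fell, and Pecam1 and Cdh5 did not pass. Of 4 Leydig genes tested 2 were higher and 1 lower, with 1 higher within the shared scan record or when any array was left out, and of 2 red blood cell genes 1 was higher, or 2 without GFRα1+ replicate 3. The part of these cells in the differences of other genes was not tested.

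**Figure D5:**
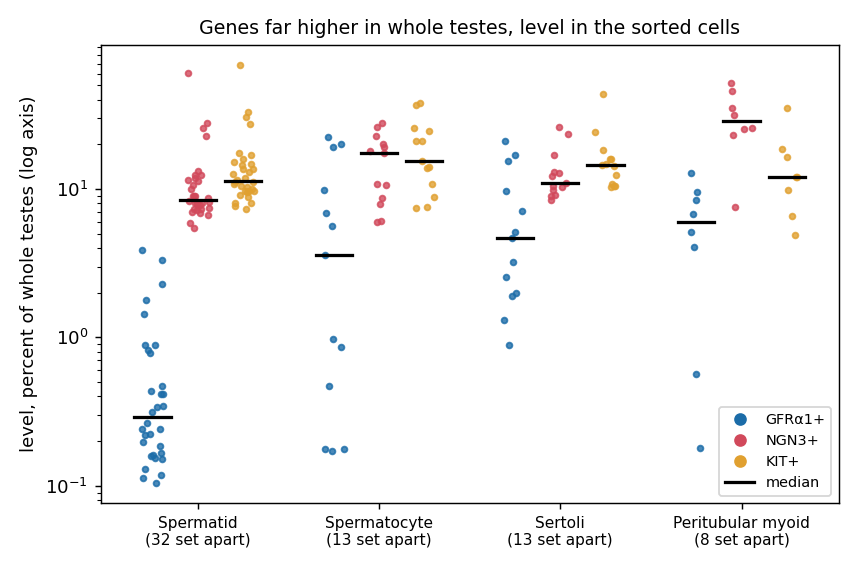
Level in GFRα1+, NGN3+ and KIT+ cells as a percent of the level in whole testes (vertical log axis) for the spermatid, spermatocyte, Sertoli and peritubular myoid genes that were set apart (horizontal axis), with 1 point per gene (mean of 3 arrays) and bars for the median. Spermatid genes stand at 8.47% in NGN3+ and 0.289% in GFRα1+ cells, and myoid genes at 28.6% in NGN3+ and 12.1% in KIT+ cells.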

How the data were processed

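RNA of 4 groups of 3 samples was labelled with Cy3 and hybridised to 1-colour Agilent mouse arrays. The authors deposited scanner files with the processed signal of each spot, an intensity on a linear scale after background subtraction, extracted with Agilent Feature Extraction (versions 10.7.3.1 and 10.7.1.1 per the file headers). They also deposited a table of log2 values. Checked against the scanner files, it holds log2 of the processed signal minus a constant per array, with no centring of genes, for 99.6% to 99.7% of probes within 0.01. The constant was taken to be the 75th percentile of the array, and its value was not checked directly. With scanner signals scaled by a 75th percentile computed here, the median difference over all genes was −0.1897, against −0.1879. Column medians ran from −3.85 to −3.67 on GFRα1+, −3.57 to −3.49 on NGN3+, −3.64 to −3.50 on KIT+ and −3.49 to −3.45 on whole testis arrays. The table gave the levels, and the scanner flags gave detection. No spot was saturated. The constant, taken as the 75th percentile, was an intensity of 318 to 339 on GFRα1+ and 471 to 673 on NGN3+ arrays.

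Of 55681 probes with a name, which stand for 36315 genes, symbols were brought up to date with the RefSeq gene table of GRCm38.p6 (26413 probes by accession, 3859 by symbol, 735 by synonym, 24674 kept as in the files). Probe positions are mm9 and come from the scanner files. A gene was read from 1 probe, the brightest on average across the 9 sorted-cell arrays. limma 3.58.1 (lmFit, eBayes) in R 4.3.3 was fitted over these 9 arrays with no covariate and Benjamini-Hochberg adjustment, two-sided. Its code was tested on simulated data. "At least N-fold" sets the mean of the bright group against the mean, per array of the dim group, of the probe's own value or the dimmest detected probe, whichever is higher. Precision is limited by how few arrays there are, since an exact permutation test of 3 against 3 has a smallest p of 0.1.

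The comparison, its gene lists, the retinoic acid list that was left out (105 genes, 86 of them tested) and the rules were chosen with earlier results of these data known. Genes named by rule were the 5 markers, the 12 largest falls and rises with a RefSeq symbol among genes not set apart, with no overlap and above background on all 6 arrays, the 6 brightest in each direction that were undetected in the other fraction, the 5 largest rises among genes set apart and up to 4 leading members of each list, with further members named to say which passed. Mrc1, Dusp4 and further list members such as Kdr, Dusp5 and Zfp36, the 3 promoters and the 3 motifs were chosen after their values were seen. The methods of the study used GeneSpring and a t-test, run here as an alternative.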

Additional observations from a re-analysis of the deposited data

How the results depend on the processing

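Outside the retinoic acid list and the genes set apart, 1450 genes were higher and 8506 lower. The higher ones were 2449 with the percentile over the probes detected on all 12 arrays, 867 with the methods' t-test, 764 with the scan as a block and 777 within the shared scan, and the lower ones 5564 with the scan as a block and 4877 within the shared scan. Over all genes, 4766 higher and 8617 lower, the higher ones were 2633 where only genes well above background on all 6 arrays were tested, which leaves fewer genes, and the lower ones 5622 with the scan as a block and 4931 within the shared scan. Without 1 array at a time the counts were 4127 to 5360 higher and 6262 to 8880 lower over all genes, and 1049 to 2026 higher and 6179 to 8790 lower for the genes kept. The lowest count of kept rises came without GFRα1+ replicate 1 and the highest without GFRα1+ replicate 3. Falls made up 85.4% of kept calls, and 70.6% with the percentile over the probes above background on all 12 arrays. Normexp gave 1024 and 9808 for the kept genes. Other rules for setting genes apart gave 1141 to 1639 higher and 8114 to 8560 lower. The cause of these shifts was not tested.

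The same numbers of replicates stood in both fractions. Deviations of same-numbered arrays correlated at −0.02, −0.15 and 0.07, and those of differently numbered arrays at −0.15 to 0.19. These values give no sign that the numbers pair samples, but with 3 arrays per fraction they cannot exclude it. With a replicate block 4599 genes were higher and 7787 lower, and 1326 and 7677 of the kept genes.

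Of 44 genes named by size, detection or as markers, 3 lost the call under some alternative: Havcr1 (1.58 within the shared scan and with the scan as a block), Pnmal1 (1.39 in both, 0.39 with normexp) and Fam25c (0.31 with normexp). No gene among the 44 reversed. Dim probes limit the size of every difference given as a bound.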
